A study of Mus musculus and Mus musculus musculus x Mus musculus castaneus with 8 samples.

Results

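Open chromatin around 6 genes of the pluripotency network, Pou5f1 (also called Oct4), Sox2, Nanog, Klf4, Esrrb and Utf1, was examined in lists of ATAC-seq peaks from mouse cells before and after nuclear transfer (NT). For each gene a fixed window of the mouse genome build mm9 was taken, and every peak that overlapped it by at least 1 bp was kept. The windows were chr17:35590000-35700000 for Pou5f1, chr3:34500000-34600000 for Sox2, chr6:122607000-122715000 for Nanog, chr4:55490000-55595000 for Klf4, chr12:87700000-87865000 for Esrrb and chr7:147080000-147180000 for Utf1, 688 kb in all. Of 151729 peaks in 5 lists, 76 lay in the windows.

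Each list stands for 1 condition. C2C12 is a mouse myoblast line, labelled as strain C3h, and was assayed from 50000 cells (2 libraries) and from 1000 cells (2 libraries). The other 3 lists came from mouse embryonic fibroblasts (MEFs) made from embryos of a cross with Mus musculus castaneus and permeabilized for transfer. They comprise donor MEFs before NT (1 library of 3000 cells), MEFs 48 h after NT into Xenopus laevis oocytes (2 libraries of 3000 cells), and MEFs taken at the same time from oocytes with overexpressed Toca1, a factor that promotes actin polymerization (1 library of 3000 cells). The transplanted nuclei do not divide or replicate their DNA in this system. The 1000-cell and Toca1 lists were tied to their conditions by the list name alone. A list gives only where peaks passed a false discovery rate of 0.01, with no score and no read number, so depth and peak strength are unknown and the libraries of a condition cannot be told apart. No test was therefore run, a missing peak means only that no peak passed the threshold, and a longer list can come from more reads. The identity of the cells could not be checked against marker genes, because no gene annotation of mm9 was used.

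Pou5f1, Sox2 and Nanog encode the transcription factors at the core of the network that keeps embryonic stem cells undifferentiated. Klf4 is a zinc finger factor that also acts in somatic cells and is one of the factors used to make induced pluripotent stem cells. Esrrb is an orphan nuclear receptor that sustains self-renewal, and Utf1 is a chromatin-associated protein expressed in undifferentiated embryonic cells. In fibroblasts and myoblasts these genes, other than Klf4, are normally silent.

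The promoters of Utf1 and Esrrb are shown because these are the members whose start could be placed in a peak, after control NT for Utf1 and after NT with Toca1 for Esrrb. Each sequence is the 250 bases before the start site, 5′ to 3′ on the plus strand, from RefSeq in build GRCm38.p6. These positions cannot be compared with the mm9 positions of the peaks. Capitals mark GC boxes (GGGCGG on either strand). The Esrrb sequence holds none, and neither sequence holds the nuclear receptor core motif AGGTCA on either strand.
Utf1, chr7:139943606-139943855: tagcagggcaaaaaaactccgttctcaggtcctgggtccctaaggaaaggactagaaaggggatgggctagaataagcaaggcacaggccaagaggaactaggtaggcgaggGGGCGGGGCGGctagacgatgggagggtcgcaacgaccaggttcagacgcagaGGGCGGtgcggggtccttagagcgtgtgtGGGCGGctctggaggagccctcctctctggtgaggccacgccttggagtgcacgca
Esrrb, downstream of its 2 listed starts, chr12:86421394-86421643: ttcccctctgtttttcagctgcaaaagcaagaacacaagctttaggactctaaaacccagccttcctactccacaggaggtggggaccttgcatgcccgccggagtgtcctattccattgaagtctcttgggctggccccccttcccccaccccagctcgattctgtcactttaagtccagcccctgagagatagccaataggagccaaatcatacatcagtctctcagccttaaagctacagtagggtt

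The promoters of all 6 genes were found in the RefSeq table, which lists 9 start sites for them. In windows of 300 bases, 250 before and 50 after each start, Utf1 held 17 CpG dinucleotides and 4 GC boxes, of which a pair overlap. The downstream Esrrb window held 7 CpG dinucleotides and neither motif. The upstream of the Pou5f1 windows held 11 CpG dinucleotides, 1 GC box and 1 copy of AGGTCA at position -33 from the start. Klf4 had the most CpG dinucleotides (40) and 4 GC boxes, Sox2 had 27 and 2, and both Nanog windows had 4 and 0. Over all 32851 such windows the median was 7 CpG dinucleotides, 35.7% held a GC box and 16.3% held AGGTCA. Among the 9 windows of these genes, 4 held a GC box and 3 held AGGTCA (Pou5f1, Sox2 and Nanog). A match describes letters only and is not a bound site.

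The windows held 29 peaks in the C2C12 list from 50000 cells, 15 in the list from 1000 cells, 15 in donor MEFs, 5 after NT and 12 after NT with Toca1. Fewer peaks were thus found after NT than before it, and more with Toca1 than without. The whole lists differ in the same direction: donor MEFs had 3.00 times as many peaks as NT in the windows and 4.79 times as many in the whole list, and Toca1 had 2.40 times as many as NT in the windows and 1.99 times as many in the whole list. Donor MEFs had 1.25 times as many peaks as Toca1 in the windows and 2.41 times as many in the whole list. Single windows did not follow the length of the lists: Pou5f1 had 5 peaks with Toca1 and 3 in donor MEFs, Esrrb had 8 in C2C12 from 1000 cells and 2 in C2C12 from 50000 cells, and Utf1 had 2 in each NT list. The part of depth in these counts was not tested.

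**Figure D1:**
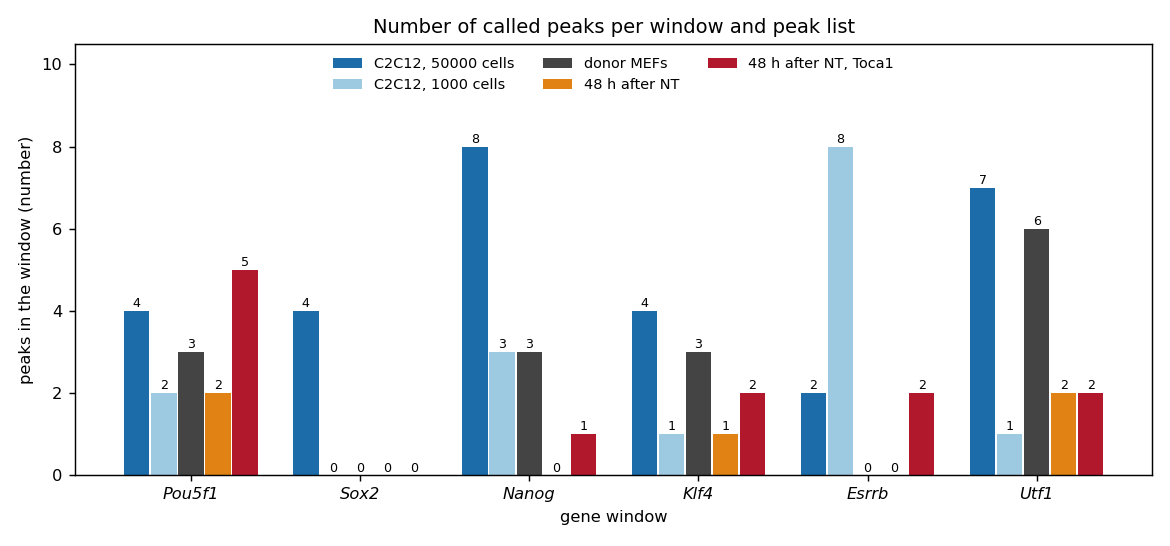
Number of called peaks (y axis) in each gene window (x axis), with 1 bar per peak list and the number above it. The Sox2 window held peaks in the list from 50000 C2C12 cells only, and the Nanog, Sox2 and Esrrb windows held 0 peaks after control NT.

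At least 1 peak was found in 6 of the 6 windows for C2C12 from 50000 cells, in 5 for C2C12 from 1000 cells, in 4 for donor MEFs, in 3 after NT and in 5 after NT with Toca1. As a background, all chromosomes were cut into 25721 consecutive pieces of 100 kb, which is close to the window lengths except for Esrrb (165 kb). The shares of these pieces with a peak were 57.4% for C2C12 from 50000 cells, 65.4% for C2C12 from 1000 cells, 54.2% for donor MEFs, 22.9% after NT and 33.5% after NT with Toca1. With 6 windows chosen around genes, these shares serve only to read the counts against. Sox2 and Esrrb were without a peak in donor MEFs, Sox2, Nanog and Esrrb after NT, and Sox2 with Toca1.

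**Figure D2:**
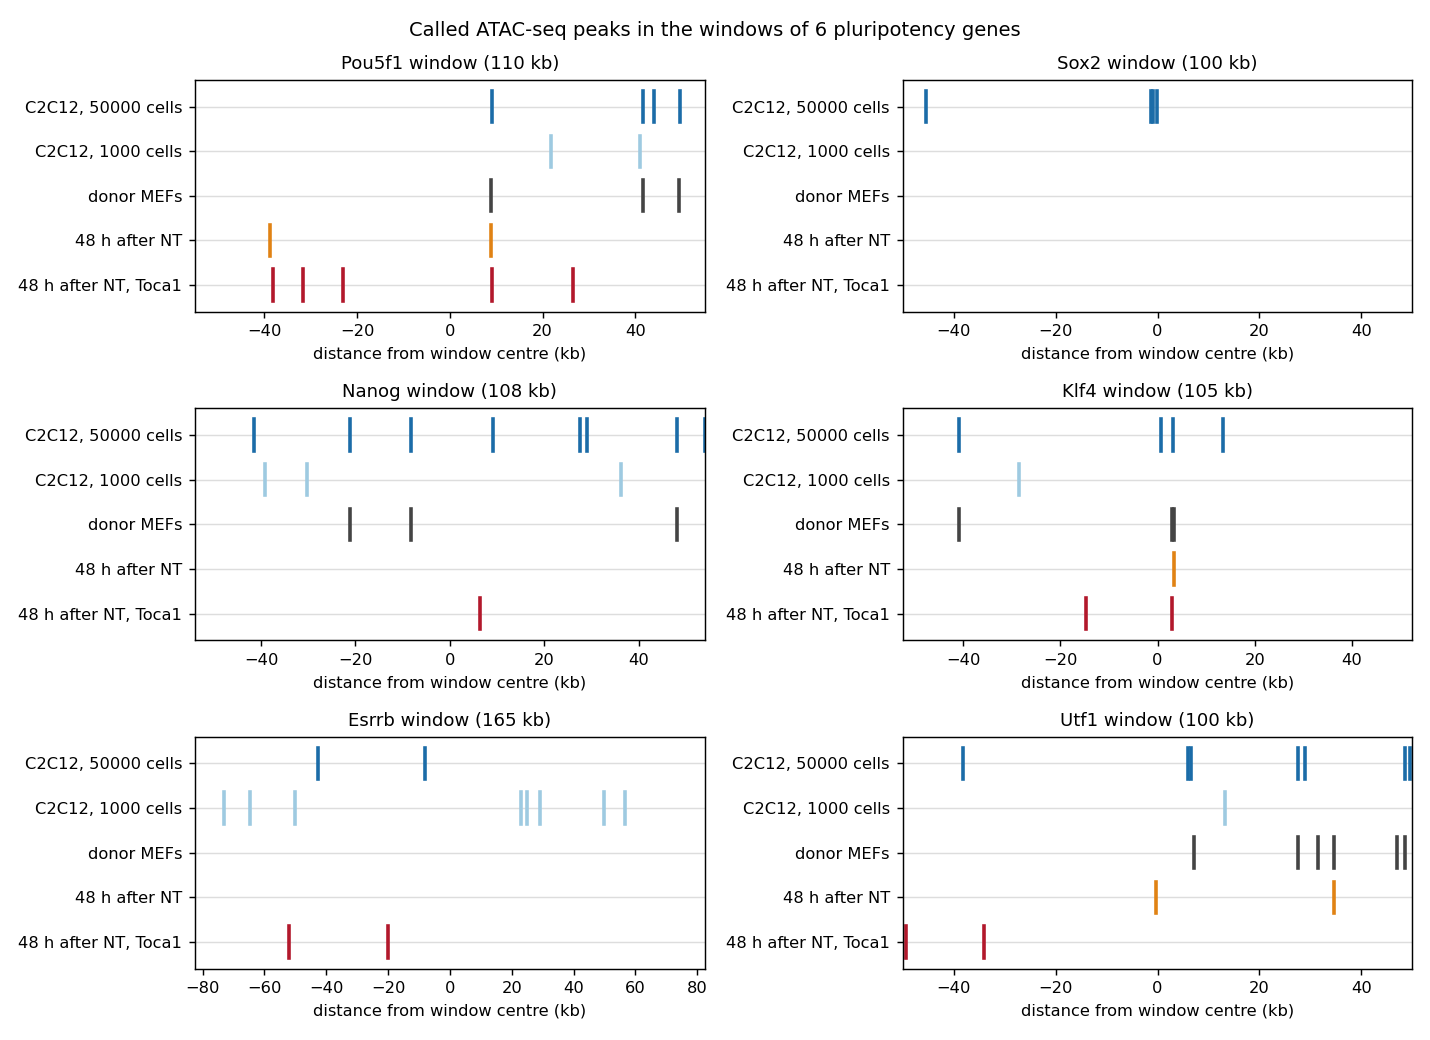
Position of every called peak in the 6 windows, as distance from the window centre in kb (x axis), with 1 row per peak list. Each tick marks the centre of a peak and not its width. The ticks of the NT lists coincide with donor MEF ticks in the Pou5f1 and Klf4 windows and, after control NT, at 1 site of the Utf1 window.

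Utf1 had a peak at its promoter after control NT and in no other list. The peak was chr7:147129498-147129832, 335 bp wide, and the study's annotation places it at the Utf1 TSS. Its centre lay at -0.34 kb from the centre of the window. In the list after NT, 39.9% of peaks were as wide or wider. The nearest donor MEF peak was 7267 bp away, the nearest C2C12 peak from 50000 cells 5951 bp away and the nearest Toca1 peak 33329 bp away. The Utf1 promoter peak of control NT was thus not called with Toca1. Of all 3146 control NT peaks at least 5 kb from any donor peak, 16.5% overlapped a Toca1 peak.

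Donor MEFs had 6 peaks in the Utf1 window, all to the right of this promoter peak. They were 192 bp (chr7:147137100-147137291), 504 bp (chr7:147157305-147157808), 255 bp (chr7:147161448-147161702), 342 bp (chr7:147164380-147164721), 253 bp (chr7:147176847-147177099) and 291 bp (chr7:147178359-147178649) wide. Of these the peak of 342 bp alone was overlapped after control NT, by a peak of 180 bp (chr7:147164608-147164787) that covered 33.3% of it and reached 66 bp beyond its right end. None of the 6 was overlapped with Toca1. Over the whole donor list, 9.73% of peaks were overlapped after control NT and 19.7% with Toca1. The Toca1 list had a different pair of peaks far to the left, 267 bp (chr7:147080469-147080735) and 236 bp (chr7:147095933-147096168) wide, at least 40931 bp from any donor peak. C2C12 from 50000 cells had 7 peaks in this window, which overlapped the donor peaks of 504 and 291 bp. One of its peaks, 822 bp wide (chr7:147136174-147136995), ended 104 bp before the donor peak of 192 bp. The neighbouring coding genes in GRCm38.p6 are Kndc1 before Utf1 and Spef1l and Adam8 after it, so peaks of this window may belong to other genes.

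Pou5f1 had no peak in any list between chr17:35622268 and chr17:35653663, a stretch of 31.4 kb. The start of Pou5f1 could not be placed in mm9, so whether it lies in this stretch is not known here. In GRCm38.p6 the next coding genes are H2-Q10 before Pou5f1 and Tcf19 and Cchcr1 after it. To the right of the stretch stood the site of the window that 4 of the 5 lists shared. It was 643 bp wide in C2C12 from 50000 cells, 501 bp in donor MEFs, 307 bp after NT and 659 bp with Toca1. The NT peak lay wholly within the donor peak and covered 61.3% of it. The Toca1 peak covered 100% of the donor peak and was 1.32 times as wide. The Toca1 peak there was 1.02 times as wide as the C2C12 peak and covered all of it.

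Left of that stretch, the window held peaks only in the NT lists. Control NT had a peak of 283 bp (chr17:35606010-35606292), which the study's annotation places nearest to H2-Q10. Toca1 had peaks of 522 bp (chr17:35606671-35607192), 427 bp (chr17:35613170-35613596) and 861 bp (chr17:35621407-35622267). The control and Toca1 peaks closest to each other did not overlap and were 378 bp apart. Donor MEFs had their nearest peak 29763 bp or more away from these 4. H2-Q10 is a class I histocompatibility gene with near-identical relatives next to it, and how reads that fit several copies were treated is not given in the sources used here. Right of the shared site, donor MEFs had peaks of 718 bp (chr17:35686296-35687013) and 331 bp (chr17:35694259-35694589), which C2C12 from 50000 cells shared. Neither was found in an NT list. A further Toca1 peak of 226 bp (chr17:35671346-35671571) lay 14724 bp from the nearest donor peak.

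Klf4 had the second site that 4 lists shared, and its width differed most among them. Donor MEFs had a pair of peaks there, 582 bp (chr4:55545095-55545676) and 182 bp (chr4:55545842-55546023) wide and 165 bp apart. C2C12 from 50000 cells had 1 peak of 907 bp (chr4:55545272-55546178) across both. After control NT a peak of 175 bp (chr4:55545863-55546037) remained on the narrower donor peak, with 161 bp in common, and the wider donor peak had none. With Toca1 a single peak of 940 bp (chr4:55545100-55546039) covered 99.1% of the wider and 100% of the narrower donor peak. The Toca1 peak was 5.37 times as wide as the control NT peak. The ratio was 2.15 at the shared site in the Pou5f1 window and 1.60 for the median widths of the whole lists. The right ends of the NT peaks were 2 bp apart, so the added width lay on the left. The sites were chosen for being shared, and width cannot be told apart from depth with 1 list per condition.

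**Figure D3:**
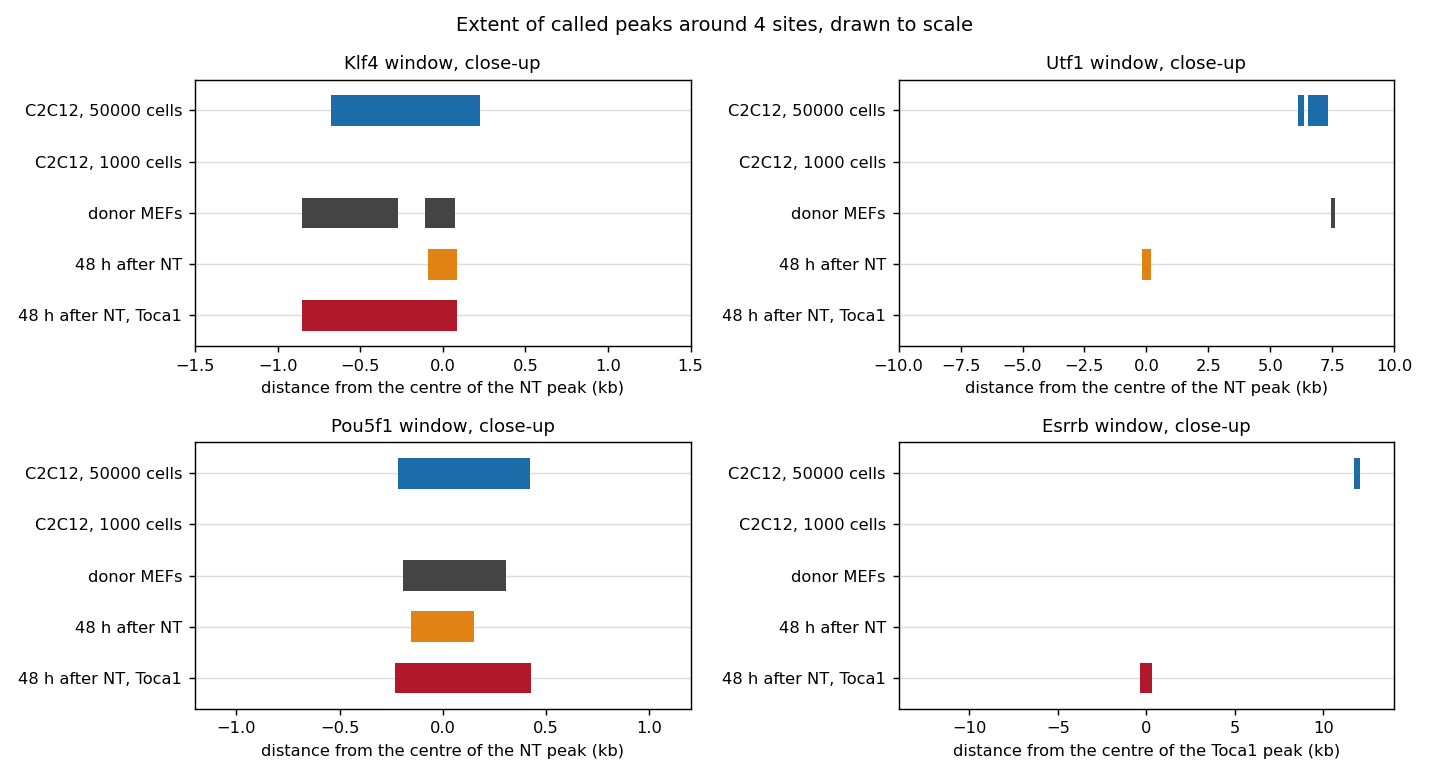
Extent of called peaks around 4 sites, drawn to scale, with the distance in kb from the centre of the control NT peak (Klf4, Utf1, Pou5f1) or of the Toca1 peak (Esrrb) on the x axis and 1 row per peak list. The NT peak of Klf4 (175 bp) sits on the narrower donor peak, while the Toca1 peak (940 bp) spans both donor peaks. The Utf1 promoter peak and the Esrrb peak each appear in 1 list.

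The rest of the Klf4 window held few peaks. A peak shared by donor MEFs (280 bp, chr4:55501516-55501795) and C2C12 from 50000 cells (342 bp) was in neither NT list. Toca1 had 1 peak without a donor counterpart, 443 bp wide (chr4:55527649-55528091) and 17003 bp from the nearest donor peak. C2C12 from 50000 cells alone had peaks of 337 bp (chr4:55543068-55543404) and 418 bp (chr4:55555712-55556129) on either side of the shared site.

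Esrrb had no peak in donor MEFs or after control NT, and the nearest donor peaks lay 93.5 kb to the left and 128 kb to the right of the window. Toca1 had peaks of 213 bp (chr12:87730202-87730414) and 671 bp (chr12:87762158-87762828). The wider one was 155707 bp from any donor peak and 11389 bp from any C2C12 peak of 50000 cells, and 29.0% of the Toca1 list was as wide or wider. A TSS of Esrrb lies inside it: the study's annotation of a peak downstream of the gene names Esrrb as the closest TSS, and the distance given there ends within the Toca1 peak. Since that peak is beyond the gene, the closest TSS is taken to be the downstream of the starts RefSeq lists, whose promoter is shown above.

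Just outside the Esrrb window, 10.7 kb to the right, both NT lists had a peak. It was 421 bp wide after control NT (chr12:87875701-87876121) and 393 bp wide with Toca1 (chr12:87875683-87876075). The donor list had no peak within 117360 bp of the control NT peak, and no C2C12 peak from 50000 cells overlapped it. Windows extended by 50 kb on each side held 12 NT peaks and 22 Toca1 peaks. Only this site and the shared sites in the Pou5f1 and Klf4 windows were in both NT lists. Of these, only the site right of the Esrrb window was absent from donor MEFs. By the rule this site is not a peak of the window, and it was picked out after its position was seen.

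Sox2 had peaks in C2C12 from 50000 cells and in no other list. They were 205 bp (chr3:34504411-34504615), 445 bp (chr3:34548476-34548920), 292 bp (chr3:34549006-34549297) and 224 bp (chr3:34549811-34550034) wide. The last 3 lay within 1559 bp of each other, at the centre of the window. The stretch without a peak around Sox2 was 1.17 Mb long in donor MEFs, 1.91 Mb after NT and 0.775 Mb with Toca1, while neighbouring peaks were a median of 21.9 kb, 101 kb and 44.2 kb apart in these lists. Stretches that long or longer made up 0.617%, 3.07% and 3.72% of all those between neighbouring peaks, counted by number. A long stretch covers more of the genome than a short one, so these shares are not the odds that a locus lies in one. For the other empty windows the shares were 2.40% at Esrrb in donor MEFs and 5.71% at Sox2 in C2C12 from 1000 cells. After NT they were 21.1% at Esrrb and 27.4% at Nanog. The C2C12 list from 1000 cells did not repeat the Sox2 peaks, its nearest peak being 22.8 kb right of the window.

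Nanog had 3 donor MEF peaks, and none of them overlapped a peak after control NT or with Toca1. Over the whole donor list, 9.73% and 19.7% of peaks did. The donor peaks were 902 bp (chr6:122639354-122640255), 465 bp (chr6:122652441-122652905) and 518 bp (chr6:122708783-122709300) wide. The peak of 902 bp was among the widest 2.13% of the donor list. All 3 were shared with C2C12 from 50000 cells, as peaks of 805, 746 and 933 bp. Control NT had no peak in the window, and the nearest were 77.1 kb to its left and 34.5 kb to its right. Toca1 had 1 peak of 259 bp (chr6:122667321-122667579), 14415 bp from the nearest donor peak and 2486 bp from a C2C12 peak of 244 bp. In GRCm38.p6 the coding genes around Nanog are Gdf3 and Dppa3, both expressed in pluripotent or early germ cells, before it and the glucose transporter gene Slc2a3 after it, and the peaks were not assigned to any of them.

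The donor peaks of the windows were followed next. Of 15, 3 overlapped a peak after NT (20.0%, 95% Wilson interval 7.05% to 45.2%), against 9.73% of the whole donor list. With Toca1 also 3 did, against 19.7% of the whole list. Among these, both donor peaks of the Klf4 site lay under the same Toca1 peak, so they are not separate sites. With 15 peaks the interval is wide, and neither agreement with the whole list nor a difference from it was tested. Together 4 donor peaks were in an NT list. They were the peak of the shared site in the Pou5f1 window, both Klf4 site peaks and the 342 bp peak at Utf1. The other 11 were in neither. Of those 11, 8 were shared with C2C12 from 50000 cells. Neither of these 2 counts was made over the whole donor list, of which 64.6% was shared with C2C12 from 50000 cells.

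**Figure D4:**
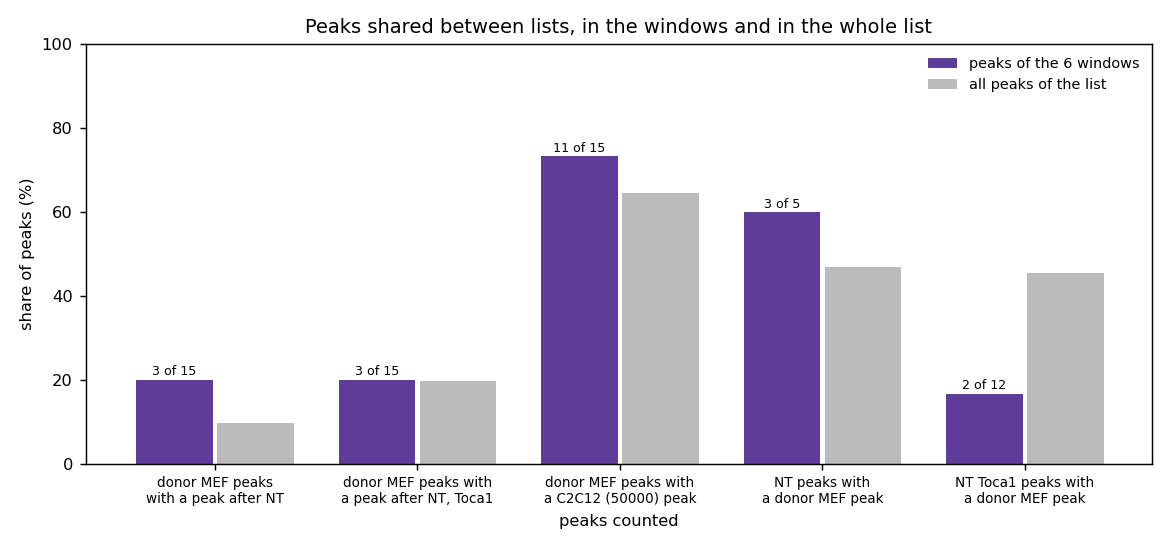
Share of peaks in percent (y axis) that overlapped a peak of a second list by at least 1 bp, for the peaks of the 6 windows (purple, with counts) and for all peaks of the same list (grey). Windows and whole lists lie close for donor peaks found with Toca1, where the same Toca1 peak covers both Klf4 donor peaks. They lie apart for Toca1 peaks found in donor MEFs, at 2 of 12 against 45.5%.

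Seen from the NT lists, 3 of the 5 control NT peaks overlapped a donor peak (60.0%, interval 23.1% to 88.2%, against 46.9% of the whole list). The other 2, at the Utf1 promoter and near H2-Q10, were at least 5 kb from any donor peak, which is the study's definition of newly opened, against 38.1% of the whole list. With Toca1, 2 of 12 peaks overlapped a donor peak (16.7%, interval 4.70% to 44.8%, against 45.5% of the whole list). The other 10 were at least 5 kb away (83.3%, interval 55.2% to 95.3%, against 39.7%). They comprised 4 in the Pou5f1 window, 1 at Nanog, 1 at Klf4, 2 at Esrrb and 2 at Utf1. Those of 522, 427 and 861 bp in the Pou5f1 window lay on the side of H2-Q10. How reads that fit several copies were treated there is not given. These intervals cover counting error only and take peaks of the same window as separate, although 4 of the 10 lay in the Pou5f1 window, so the difference from the whole list was not tested. With windows extended by 50 kb on each side, 15 of 22 Toca1 peaks were at least 5 kb away.

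Peaks shared between the NT lists at these genes were counted too. With 5 and 12 peaks the intervals are wide, and agreement with the whole lists was not tested. Of the control NT peaks 2 of 5 were in the Toca1 list (40.0%, interval 11.8% to 76.9%, against 44.3% of the whole list), and of the Toca1 peaks 2 of 12 were in the control list (16.7%, interval 4.70% to 44.8%, against 21.5%). The peaks in both lists were those of the shared sites in the Pou5f1 and Klf4 windows, and donor MEFs had both. No peak inside a window was present in both NT lists and absent from donor MEFs. The windows held only 2 control NT peaks without a donor peak, both at least 5 kb from any. Of all 3146 control NT peaks that far from a donor peak, 16.5% overlapped a Toca1 peak. With only 2 such peaks, the absence is not read as a trait of these genes.

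Donor MEFs and C2C12 were compared in the same way. Of the 15 donor MEF peaks 11 overlapped a peak of C2C12 from 50000 cells (73.3%, interval 48% to 89.1%, against 64.6% of the whole list). All 4 that did not were in the Utf1 window. In the other direction 10 of 29 C2C12 peaks were in donor MEFs (34.5%, interval 19.9% to 52.7%, against 48.4%). Of the 15 peaks from 1000 C2C12 cells, 0 overlapped a peak of another list (interval up to 20.4%), against 9.90% of that whole list. The 8 of them in the Esrrb window were 150 to 350 bp wide and the nearest was 7167 bp from a peak of the 50000-cell list. Libraries from 1000 cells skipped the purification kit, and the part of this in the result was not tested.

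When overlapping peaks of all lists were merged, the windows held 60 sites. A single list accounted for 49 of them, 2 lists for 9 and 4 lists for 2. The 9 sites of 2 lists were 8 of donor MEFs with C2C12 from 50000 cells and 1 of donor MEFs with control NT. Sites of 1 list only numbered 19 for C2C12 from 50000 cells, 15 for C2C12 from 1000 cells, 3 for donor MEFs, 2 after NT and 10 with Toca1. The whole lists were not merged in this way. Whether single-list sites are more or less common in these windows than elsewhere was therefore not tested.

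The median width of the peaks in the windows was below that of the whole list in every list. It was 377 bp in C2C12 from 50000 cells (392 bp in the whole list), 257 bp in C2C12 from 1000 cells (258 bp), 342 bp in donor MEFs (399 bp), 283 bp after NT (291 bp) and 435 bp with Toca1 (467 bp). In the same order, 14 of 29, 7 of 15, 7 of 15, 2 of 5 and 5 of 12 peaks were at or above their list's median. The differences are small and were not tested. The widest peaks were 973 bp at the right edge of the Nanog window in C2C12, 902 bp at Nanog in donor MEFs, 335 bp at the Utf1 promoter after NT and 940 bp at Klf4 with Toca1. The NT peaks at the Klf4 site and at the right of Utf1 were narrow, with 94.9% and 93.4% of the NT list as wide or wider.

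**Figure D5:**
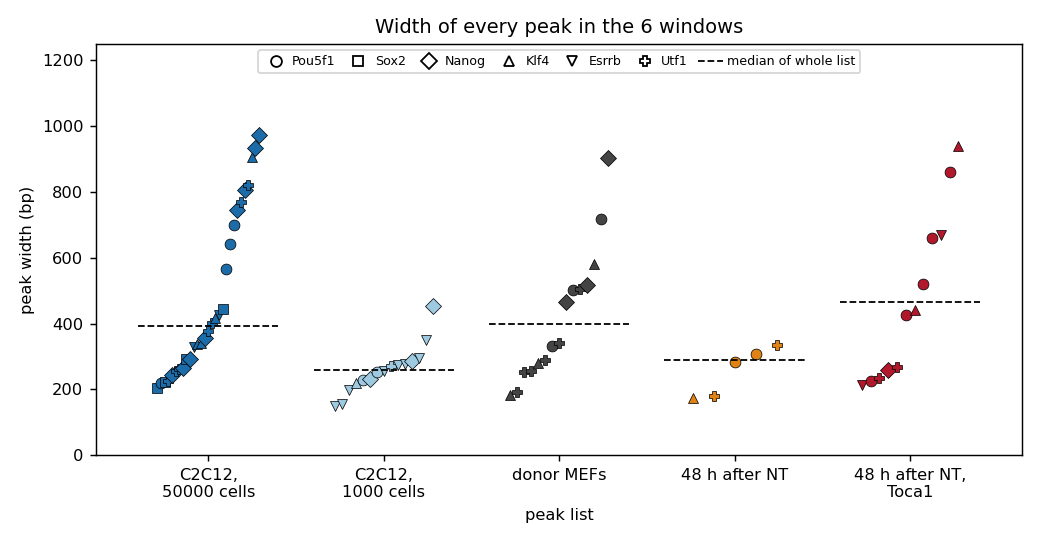
Width in bp (y axis) of every peak in the 6 windows by peak list (x axis), ordered by width within a list, with a symbol per gene and a dashed line at the median of the whole list. The 5 control NT peaks lie between 175 and 335 bp, and 5 of the 12 Toca1 peaks lie at or above their list's median of 467 bp.

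The counts depend on where the windows end. The peak of 973 bp in C2C12 (chr6:122714455-122715427) crossed the right edge of the Nanog window and was counted, whereas a 1000-cell peak 892 bp beyond that edge was not. At the left, a donor MEF peak 2207 bp outside the Nanog window was left out, and the Toca1 peak of 267 bp at Utf1 reached 735 bp into its window.

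A wider list of 30 genes of the pluripotency network was looked up among the newly opened peaks that the study assigned to genes or, between genes, to the closest TSS. A peak was assigned to 8 of the 30, with positions and widths taken from the list after NT. Of 21900 coding genes in RefSeq, matched by symbol, 1311 (5.99%) had one. The list was chosen with results known, and its difference from all genes was not tested. Fgf4, a growth factor gene activated by Oct4 and Sox2 in embryonic stem cells, had a promoter peak of 332 bp (chr7:152047011-152047342), 53213 bp from any donor peak. Nodal, which encodes a TGF-beta family signal of the early embryo, had one of 347 bp (chr10:60880470-60880816), 22772 bp from any donor peak and 250 bp from a C2C12 peak. Zscan10, a zinc finger gene of embryonic stem cells, had a peak of 387 bp in its body (chr17:23744224-23744610). The other 5 peaks lay between genes, nearest to Klf2 (474 bp), Tfcp2l1 (384 bp), Lin28a (369 bp), Sall4 (212 bp) and Mycn (194 bp).

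Of these 8 peaks 2 were overlapped by a Toca1 peak, those of Zscan10 and Lin28a, against 16.5% of all 3146 newly opened peaks after control NT. None was overlapped by a peak of C2C12 from 50000 cells, against 8.23% of them, or from 1000 cells, against 1.75%. The promoter peaks of Fgf4, Nodal and Utf1 were without a Toca1 peak, as most newly opened peaks were, and the nearest lay 122291, 22420 and 33329 bp away.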

How the data were processed

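ATAC-seq peak lists of 8 libraries in 5 conditions were used. The values are peak starts and ends in bp, deposited as 1 list per condition. Bowtie2 2.2.1, Picard, MACS2 2.1 and mm9 are named in the submitters' processing notes, without roles. Settings, filters and pooling before peak calling are not given in the sources used here. Reads that fit several places, and depth, can decide whether a peak is listed.

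Windows, gene lists and comparisons were chosen with earlier results of these data known. Starts were made 1-based. Overlap needed 1 bp, distances run edge to edge, and newly opened means that donor MEFs had no peak closer than 5000 bp. Shares have 95% Wilson intervals (counting error only). No test was run. The code was tested on simulated peaks. All 1245 intergenic newly opened positions of the study's tables were in the list after NT. These tables served to name the genes assigned to peaks and to place the Utf1 start and an Esrrb start. They also tied the donor and control NT lists to their conditions. Named genes were the 6 members, their neighbours in GRCm38.p6 and the wider list's genes with an assigned peak. All peaks in the windows and the nearest outside were eligible. Gene order and promoters came from RefSeq. mm9 genes were otherwise not placed. Python 3.11.15, scipy 1.17.1 and matplotlib 3.10.9 were used.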

Additional observations from a re-analysis of the deposited data

How the results depend on the processing

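No paired analysis was possible because the libraries of a condition share 1 peak list, and for the same reason no library could be left out. Of 50 alternative values for 13 counts, 35 stayed within 1.5 times the reported count. Joining peaks up to 150 bp apart, a reciprocal overlap of at least 50% and 150 kb pieces moved none past that. Where a wider or narrower window moved a count, the length itself changed. The cause of the other moves was not tested.

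With windows narrowed by 25 kb on each side, 16 peaks were left in C2C12 from 50000 cells and 8 in C2C12 from 1000 cells. There were then 6 in donor MEFs, 3 after NT and 8 with Toca1, so Toca1 had more than donor MEFs, unlike in the full windows. With windows extended by 50 kb on each side there were 27 in C2C12 from 1000 cells, 24 in donor MEFs, 12 after NT and 22 with Toca1, and 4 control NT peaks were newly opened. With peaks at least 250 bp wide, 9 were left in C2C12 from 1000 cells and 3 after NT, 1 donor peak overlapped an NT peak and 1 NT peak a donor peak. At a distance of at least 10000 bp, 1 control NT peak was newly opened and the Utf1 promoter peak no longer was. With peaks within 500 bp counted, 1 donor peak matched one of the 1000-cell list.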
